A study of Arabidopsis thaliana with 12 samples.

Results

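The clade A1 heat shock factors of Arabidopsis are HSFA1a (AT4G17750), HSFA1b (AT5G16820), HSFA1d (AT1G32330) and HSFA1e (AT3G02990). They were taken by locus from the deposited expression table, and all 4 were found among its 33557 loci. RNA-seq was performed on leaves of 5-week-old plants of 2 kinds, each under 2 conditions, with 3 libraries per group. The 35S:HSFA1b HS and 35S:HSFA1b NS groups came from a single line that carries the 35S:HSFA1b-RFP transgene in the Columbia 0 ecotype, and the WT HS and WT NS groups from Columbia 0 without it. HS plants were exposed to 37 °C for 30 min and harvested at once, and NS plants stayed at 23 °C. The 35S promoter is active in most plant cells, so the transgene is not limited to the cells or conditions in which the native HSFA1b promoter works. The genotype label reads wild type for every library, and the titles, which name the line, were followed.

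HSFs are transcription factors that bind heat shock elements (HSEs), which are inverted repeats of GAA and TTC units, and they do so as trimers. Class A HSFs activate transcription, whereas class B HSFs mostly repress it. Clade A1 members are present in unstressed cells, where HSP70 and HSP90 chaperones are known to hold them back, and they start the heat response by switching on HSP genes and secondary regulators such as HSFA2. The members overlap in function, and mutants that lack several of them are known to be sensitive to heat.

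Transcript levels are in FPKM, the number of sequenced fragments scaled to the length of the transcript and to the size of the library, so levels of different genes can be compared. No read counts were available, so the counting error is unknown and the spread between the 3 columns of a group is the only measure of precision. Nothing states that the libraries of a group came from separate plants except the study's methods for 3 of the groups, and for the 35S:HSFA1b HS group the spread may be technical. Each table column is named by genotype and condition and could be assigned to its group but not to a numbered library. Differences were tested with limma, which fits linear models and moderates the variances across genes, on log2(FPKM + 0.01), with Benjamini-Hochberg adjustment over all genes that averaged 1 FPKM or more, and a gene was called at an adjusted p of at most 0.05. A log2 difference on this scale slightly understates the change of a low gene. For a gene not detected in some columns, the difference depends largely on the added 0.01. For a single value, the smallest exact two-sided permutation p that 3 columns against 3 allow is 0.1.

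The columns fell into sets that the groups do not explain. In 5 columns (all 3 of 35S:HSFA1b HS and 2 of 35S:HSFA1b NS) the summed level of the leaf markers RBCS1A, RCA and LHCB1.3 was 9973 to 12709 FPKM, and in the other 7 (the column named 35S_NS_2 and all 6 WT columns) it was 44384 to 61531 FPKM. The FPKM of all loci summed to 632840 to 796860 in the same 5 columns and to 833273 to 1280260 in the other 7. Of these, WT HS columns were at 1222030 to 1280260 and WT NS columns at 873541 to 956978. In the library labels, all 3 libraries of 35S:HSFA1b HS and 2 of 35S:HSFA1b NS carry 1 sample number, and 1 library of 35S:HSFA1b NS and all 6 WT libraries carry another. Under HS, the genotype and this number cannot be told apart. Root, flower and seed markers reached at most 0.0331, 0.457 and 0.240 FPKM, and the leaf markers were never below 2821 FPKM. Median centring or quantile normalization of the columns moved the median log2 difference of all genes by over 0.1 in only 2 comparisons. These were WT HS against WT NS (-0.14 with quantile normalization, where 37.2% of calls were then higher, against 53.3% as deposited) and the response to HS in the line minus that in WT (0.12 with centring and 0.14 with quantile normalization, where 50.2% and 52.7% of calls were higher, against 33.1% as deposited). With centring 49.6% of calls were higher in 35S:HSFA1b NS than in WT NS plants, against 62.6% as deposited, and with quantile normalization 54.1% were higher in 35S:HSFA1b HS than in WT HS plants, against 42.0% as deposited. Every direction given for a called clade A1 gene held under both scalings.

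In TAIR10.1 (RefSeq), HSFA1a lies on chromosome 4 (9869818 to 9871646, minus strand), HSFA1b on chromosome 5 (5530195 to 5532889, plus strand), HSFA1d on chromosome 1 (11656964 to 11660471, minus strand) and HSFA1e on chromosome 3 (673428 to 676428, plus strand). RefSeq lists HSFA1a as HSF1 and HSFA1b as HSF3. The HSFA1a transcript used here has 2 exons and those of the other members have 3, and the coding lengths are 1488, 1446, 1458 and 1407 bases for HSFA1a, HSFA1b, HSFA1d and HSFA1e. HSFA1b and HSFA1e were the most alike, with 77.9% identical bases over their aligned coding sequences, and the other pairs lay between 66.8% (HSFA1b and HSFA1d) and 69.7% (HSFA1a and HSFA1d).

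Because a transgene transcript of HSFA1b was abundant and reads were 50 bases long with 5 mismatches allowed, the coding sequence of HSFA1b was compared with its paralogs in windows of that length. Of 1397 windows, 99 (7.09%) matched the HSFA1e transcript with at most 5 mismatches, and none did so for HSFA1a or HSFA1d. No window was identical to any paralog. The closest window had 2 mismatches in HSFA1e and 6 each in HSFA1a and HSFA1d, and the median window had 13, 24 and 24. The closest windows are shown to give the scale of this likeness, with HSFA1b as the base for each pair and capitals at the bases in which the paralog differs. The pair with HSFA1e is chr5:5532159-5532208 and chr3:675674-675723 (plus strands).
HSFA1b: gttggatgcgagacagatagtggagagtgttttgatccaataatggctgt
HSFA1e: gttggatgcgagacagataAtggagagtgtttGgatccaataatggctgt
The pair with HSFA1d crosses an intron in both genes, so only the spliced sequence is given.
HSFA1b: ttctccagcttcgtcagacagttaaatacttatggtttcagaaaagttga
HSFA1d: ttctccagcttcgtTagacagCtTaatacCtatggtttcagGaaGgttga
A read of either HSFA1b window could align to the paralog under that limit only in the first pair, and a read of 50 bases that aligns exactly to HSFA1b aligns there better. How multiply aligned reads were shared is not given in the sources used here.

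**Figure D1:**
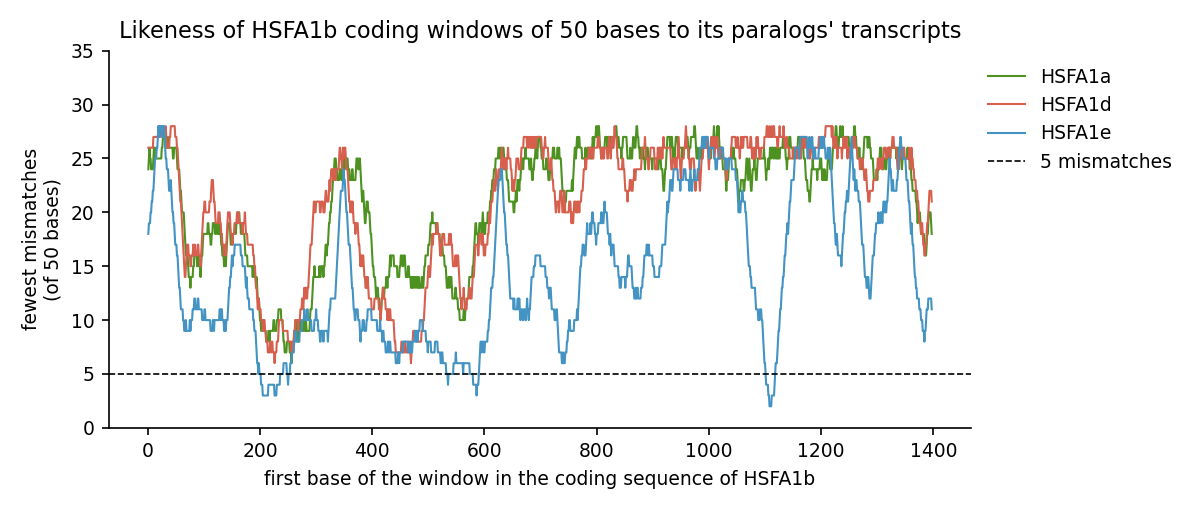
Fewest mismatches (y axis, of 50 bases) between each window of the HSFA1b coding sequence (x axis, first base of the window) and the transcripts of HSFA1a, HSFA1d and HSFA1e, with a dashed line at 5. Only the HSFA1e line goes to or below the dashed line, in 99 of 1397 windows, and its lowest point is 2.

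HSFA1b was the gene that the transgene targets, and its level in every column checks the labels. It was at 330, 364 and 351 FPKM in 35S:HSFA1b HS plants and at 430, 462 and 624 FPKM in 35S:HSFA1b NS plants, against 6.17, 6.56 and 7.31 FPKM in WT HS plants and 4.79, 3.10 and 3.55 FPKM in WT NS plants. Every column of the line was far above every WT column, so the titles and the data go together while the genotype label does not. These values add native and transgene transcripts, which cannot be told apart. HSFA1b was 133-fold higher in 35S:HSFA1b NS than in WT NS plants (95% interval 98.9 to 178, log2 difference 7.05, SE 0.19, adjusted p = 2.47e-07) and 52.1-fold higher in 35S:HSFA1b HS than in WT HS plants (40.4 to 67.3, log2 difference 5.70, SE 0.17, adjusted p = 4.06e-08). In the column 35S_NS_2 alone, which resembled the WT columns in its leaf markers, the log2 difference from WT NS was 7.37.

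HS moved the HSFA1b level in different directions in the 2 kinds of plant. In the 35S:HSFA1b line, it averaged 348 ± 16.99 FPKM under HS and 505 ± 104 FPKM under NS (SD, n = 3 each), and it fell by 0.52 on the log2 scale (SE 0.17, adjusted p = 0.0278). In WT, it averaged 6.68 ± 0.578 FPKM under HS and 3.81 ± 0.878 FPKM under NS (SD, n = 3 each), and it rose by 0.83 on the log2 scale (SE 0.19, 1.77-fold, adjusted p = 0.00737). The columns of HS and NS did not overlap in either. The change in the line rests on few columns, since without the NS column at 624 FPKM (35S_NS_2) the log2 difference was -0.36 (adjusted p = 0.111), and with any one HS column of the line left out the adjusted p lay above the threshold (0.0539 to 0.0795). The response in the line minus that in WT was -1.35 on the log2 scale (SE 0.24, adjusted p = 0.00486), and it was called with each column left out in turn (-1.52 to -1.18). This compares native and transgene transcripts together in the line with the native transcript in WT, so it is not a difference of the native gene alone.

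HSFA1d, a clade member known to act with HSFA1a and HSFA1b in starting the heat response, had the highest level of the clade in HS WT plants and rose under HS in both kinds of plant. It was at 25.5, 30.1 and 27.2 FPKM in 35S:HSFA1b HS plants and at 5.39, 5.83 and 5.33 FPKM in 35S:HSFA1b NS plants. In WT it was at 10.05, 10.98 and 15.24 FPKM under HS and at 4.47, 4.26 and 4.09 FPKM under NS. All 6 HS columns were above all 6 NS columns, and every column of the line was above every WT column under the same condition. HS raised HSFA1d 4.99-fold in the line (log2 difference 2.32, SE 0.14, adjusted p = 1.41e-06) and 2.78-fold in WT (log2 difference 1.48, SE 0.15, adjusted p = 0.000146). The response in the line was larger than that in WT by 0.84 on the log2 scale (SE 0.20, adjusted p = 0.0211). This difference kept its direction but had an adjusted p of 0.0557 without the HS column of the line at 30.1 FPKM and of 0.0551 without 35S_NS_2.

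HSFA1e, the closest paralog of HSFA1b, was the lowest of the 4 genes in WT NS leaves and rose under HS in both kinds of plant. It was at 13.3, 20.0 and 17.4 FPKM in 35S:HSFA1b HS plants and at 2.76, 3.66 and 2.60 FPKM in 35S:HSFA1b NS plants. In WT it was at 2.11, 3.46 and 5.81 FPKM under HS and at 0.861, 1.517 and 1.498 FPKM under NS. HS and NS columns did not overlap in either kind of plant. HS raised HSFA1e 5.59-fold in the line (log2 difference 2.48, SE 0.34, adjusted p = 0.00024) and 2.77-fold in WT (log2 difference 1.47, SE 0.37, adjusted p = 0.0127). The difference between these responses was 1.01 on the log2 scale and did not pass the test (95% interval -0.06 to 2.09, adjusted p = 0.191).

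HSFA1a, which binds HSEs as the other members do, showed no called change in any comparison. It was at 3.43, 2.70 and 2.27 FPKM in 35S:HSFA1b HS plants and at 3.61, 4.30 and 3.27 FPKM in 35S:HSFA1b NS plants. In WT it was at 2.85, 3.52 and 2.96 FPKM under HS and at 3.06, 3.15 and 3.86 FPKM under NS. The columns of HS and NS overlapped in both kinds of plant, and so did those of the line and WT under either condition. The log2 differences of HS from NS were -0.42 in the line (95% interval -0.82 to -0.03, adjusted p = 0.0803) and -0.11 in WT (-0.47 to 0.26, adjusted p = 0.615). Without the HS column of the line at 3.43 FPKM, the comparison within the line passed the test (log2 difference -0.58, adjusted p = 0.0304).

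**Figure D2:**
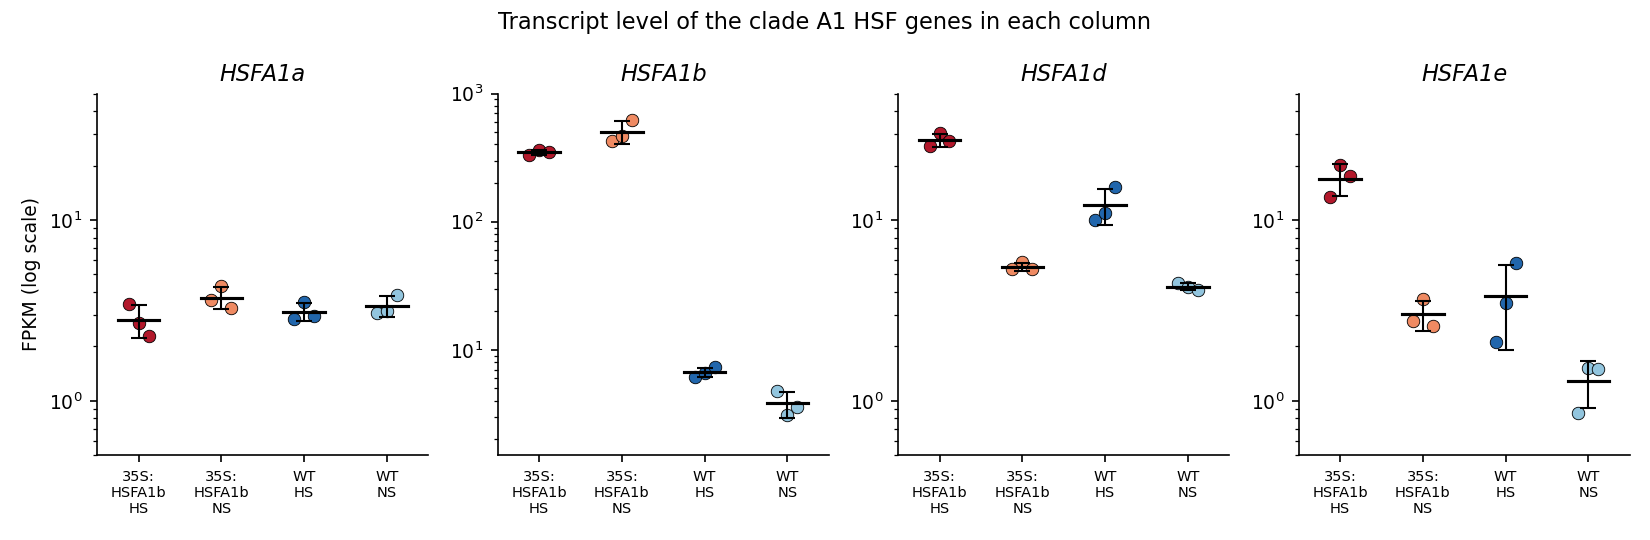
FPKM (y axis, log scale, with a wider range for HSFA1b) of the 4 genes in the 3 columns of each group, with bars for mean and SD. HSFA1d and HSFA1e are higher under HS in both kinds of plant, HSFA1a stays between 2.27 and 4.30 FPKM throughout, and HSFA1b is at 330 to 624 FPKM in the 35S:HSFA1b line only.

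Over the clade, 2 of 4 genes rose and 1 fell under HS in the line, where 22.6% and 19.7% of 17720 tested genes did, and 3 of 4 rose under HS in WT, where 23.7% of 17710 tested genes did. The columns did not overlap, with HS above NS, for 2 of 4 genes in the line and 31.3% of all tested genes, and for 3 of 4 in WT and 28.3% of all tested genes. HSFA1b in the line was lower under HS with no overlap, as 27.6% of all tested genes were. The median log2 difference of the 4 genes was 0.95 in the line and 1.15 in WT, beside 0.02 over all tested genes in each. Most tested genes had a level within the range of the paralogs, and among the 13372 genes with a mean of 1 to 30 FPKM the median log2 difference was -0.03 in the line and -0.04 in WT. With both kinds of plant in 1 test and HS and NS exchanged only within each, the mean HS difference was 1.90 for HSFA1d and 1.98 for HSFA1e on the log2 scale (exact two-sided permutation p = 0.005 for each, the smallest that 400 regroupings can give). It was -0.27 for HSFA1a (exact p = 0.07) and 0.15 for HSFA1b (exact p = 0.545). Less RNA of a gene per cell and fewer cells that express it cannot be told apart in these bulk samples.

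Whether the paralogs differ in level where the HSFA1b transgene is expressed was examined first under NS. Besides HSFA1b itself, none of the 3 paralogs was called between 35S:HSFA1b NS and WT NS plants, while 6.12% of all tested genes were called higher and 3.65% lower. Both HSFA1d and HSFA1e had no overlap between the groups, with the line above WT, as did 16.9% of all tested genes. HSFA1d averaged 5.51 ± 0.275 FPKM in the line and 4.27 ± 0.187 FPKM in WT (SD, n = 3 each), a log2 difference of 0.37 (95% interval 0.02 to 0.71, adjusted p = 0.160). HSFA1e averaged 3.01 ± 0.567 FPKM in the line and 1.29 ± 0.373 FPKM in WT (SD, n = 3 each), a log2 difference of 1.24 (95% interval 0.39 to 2.09, adjusted p = 0.0707). The call for HSFA1e depends on the columns that share the estimate of the spread, since the adjusted p was 0.0355 with all 12 columns in 1 fit and 0.0307 with the 2 groups alone. The log2 difference of the column 35S_NS_2 alone from WT NS was 1.05 for HSFA1e and 0.32 for HSFA1d, given as values of 1 column with no test. HSFA1a averaged 3.73 ± 0.526 FPKM in the line and 3.36 ± 0.440 FPKM in WT (SD, n = 3 each), a log2 difference of 0.15 (95% interval -0.22 to 0.52, adjusted p = 0.590).

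Under HS, HSFA1d and HSFA1e were higher in the line than in WT. HSFA1d averaged 27.6 ± 2.35 FPKM in 35S:HSFA1b HS plants and 12.1 ± 2.77 FPKM in WT HS plants (SD, n = 3 each), 2.32-fold higher (95% interval 1.87 to 2.87, log2 difference 1.21, SE 0.14, adjusted p = 0.000124). HSFA1e averaged 16.9 ± 3.38 FPKM in 35S:HSFA1b HS plants and 3.79 ± 1.87 FPKM in WT HS plants (SD, n = 3 each), 4.77-fold higher (2.81 to 8.08, log2 difference 2.25, SE 0.34, adjusted p = 0.000793). HSFA1a averaged 2.80 ± 0.585 FPKM in 35S:HSFA1b HS plants and 3.11 ± 0.359 FPKM in WT HS plants (SD, n = 3 each), and its log2 difference of -0.17 did not pass the test (95% interval -0.56 to 0.23, adjusted p = 0.519). Thus HSFA1d and HSFA1e were called higher but HSFA1a was not, where 12.1% of all 17720 tested genes were called higher. The columns of HSFA1d and HSFA1e did not overlap, with the line above WT, as for 19.4% of all tested genes. HSFA1b, which the transgene raises by design, was left out here. The log2 differences of HSFA1d and HSFA1e kept their direction and their call with each of the 12 columns left out (1.09 to 1.39 and 1.89 to 2.62) and in every other setting tried. The leaf markers moved with these differences, at a summed 11044 to 12709 FPKM in the line and 49205 to 60694 FPKM in WT, and their part in the result was not tested. The median log2 difference of all tested genes between the same groups was -0.03, and that of the genes with a mean of 1 to 30 FPKM was 0.02.

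**Figure D3:**
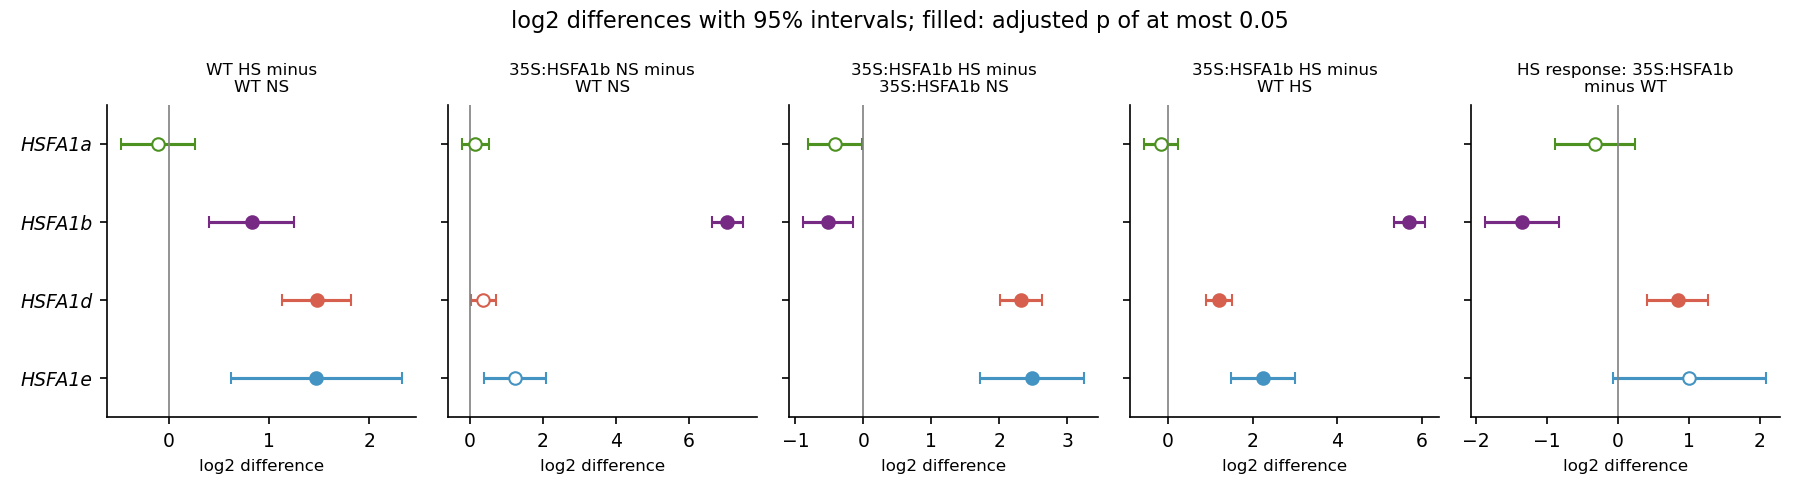
Log2 differences of the 4 genes in the 5 comparisons (x axes, with their own ranges), with 95% intervals; filled points have an adjusted p of at most 0.05. HSFA1d and HSFA1e lie to the right of 0 in every panel, with both open in the comparison of NS plants (0.37 and 1.24) and HSFA1e open in that of the HS responses (1.01), and HSFA1a is open in all 5.

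Values of HSFA1e and HSFA1b went different ways within the line. HSFA1b was lower in 35S:HSFA1b HS plants than in 35S:HSFA1b NS plants (348 against 505 FPKM), whereas HSFA1e was higher (16.9 against 3.01 FPKM). The column with the highest HSFA1b level, 35S_NS_2 at 624 FPKM, had 2.60 FPKM of HSFA1e, the lowest of the NS columns of the line. The other NS columns of the line were at 2.76 and 3.66 FPKM. HSFA1e was also higher under HS in WT, which has no transgene. Like HSFA1b, HSFA1e was higher in the line than in WT. It averaged 3.01 against 1.29 FPKM under NS, which was not called, and 16.9 against 3.79 FPKM under HS. Pearson's r of log2(FPKM + 0.01) with HSFA1b over the 12 columns was 0.616 for HSFA1e, 0.373 for HSFA1d and -0.013 for HSFA1a. Whether HSFA1b reads add to the HSFA1e level was not tested. SYP21, a syntaxin gene that overlaps the end of HSFA1b by 44 bp on the opposite strand, averaged 18.6 FPKM in 35S:HSFA1b HS, 20.6 in 35S:HSFA1b NS, 24.6 in WT HS and 18.5 in WT NS plants. Whether reads were assigned by strand is not given in the sources used here. SYP21 was not called between the NS groups (log2 difference 0.15, adjusted p = 0.504). Its log2 differences of 35S:HSFA1b HS from WT HS plants (-0.38, adjusted p = 0.0419) and of WT HS from WT NS plants (0.39, adjusted p = 0.044) lost their calls with 9 of 12 and 8 of 9 columns left out in turn. AT5G16810, 216 bp before HSFA1b, averaged 21.7 FPKM in 35S:HSFA1b HS, 17.6 in 35S:HSFA1b NS, 21.7 in WT HS and 17.7 in WT NS plants. It was not called in any comparison. The nearest genes beside HSFA1d, MKK10 and AT1G32337, were at or near 0 in every column, at most 0.0808 FPKM. AT3G03000, next to HSFA1e, was lower under HS in the line (log2 difference -0.83, adjusted p = 0.00851), where HSFA1e was higher. AT3G03000 was also lower in 35S:HSFA1b HS than in WT HS plants, with the call lost for 5 of 12 columns left out in turn. Beside HSFA1a, AT4G17740 was not called in any comparison, and AT4G17760 was lower in 35S:HSFA1b NS than in WT NS plants (log2 difference -1.06, adjusted p = 0.0152) with the call lost for 3 of 9 columns left out in turn. AT4G17760 was also lower in WT HS than in WT NS plants. That call was lost for 8 of 9 columns left out in turn (log2 difference -0.73 to -0.47). Its group means were low, at 1.20 to 2.52 FPKM.

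The order of the 4 levels differed between groups. In 35S:HSFA1b HS plants it was HSFA1b, HSFA1d, HSFA1e and HSFA1a, with no overlap between neighbours. In 35S:HSFA1b NS plants it was HSFA1b, HSFA1d, HSFA1a and HSFA1e, and the columns of HSFA1a and HSFA1e overlapped. In WT HS plants it was HSFA1d, HSFA1b, HSFA1e and HSFA1a, and again HSFA1e and HSFA1a overlapped. In WT NS plants HSFA1d, HSFA1b and HSFA1a overlapped in turn, and HSFA1e was below all of them.

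The summed level of the 4 genes was 372, 416 and 397 FPKM in 35S:HSFA1b HS plants and 441, 476 and 635 FPKM in 35S:HSFA1b NS plants, against 21.2, 24.5 and 31.3 FPKM in WT HS plants and 13.18, 12.03 and 13.00 FPKM in WT NS plants. HSFA1b made up 88.1% of it in 35S:HSFA1b HS and 97.6% in 35S:HSFA1b NS plants, against 26.4% in WT HS and 29.8% in WT NS plants. Without HSFA1b, the sum was 42.2, 52.9 and 46.9 FPKM in 35S:HSFA1b HS and 11.8, 13.8 and 11.2 FPKM in 35S:HSFA1b NS plants, against 15.01, 17.96 and 24.02 FPKM in WT HS and 8.38, 8.93 and 9.45 FPKM in WT NS plants. Each of these sets lay apart from its HS or NS counterpart and from the other kind of plant under the same condition. HSFA1b was at 7.39 ± 0.473 times the sum of its paralogs in 35S:HSFA1b HS and 41.9 ± 12.02 times in 35S:HSFA1b NS plants, against 0.360 ± 0.0536 times in WT HS and 0.431 ± 0.122 times in WT NS plants (SD, n = 3 each).

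Among the 3 paralogs, HSFA1a had a smaller share in every HS column than in any NS column of the same kind of plant. HSFA1a made up 6.02 ± 1.82% of their sum in 35S:HSFA1b HS and 30.4 ± 1.04% in 35S:HSFA1b NS plants, and 16.98 ± 4.03% in WT HS and 37.5 ± 2.93% in WT NS plants (SD, n = 3 each). HSFA1d made up 58.5 ± 1.71% in 35S:HSFA1b HS and 45.2 ± 2.68% in 35S:HSFA1b NS plants, and 63.8 ± 2.92% in WT HS and 48.1 ± 5.00% in WT NS plants (SD, n = 3 each). HSFA1e made up 35.5 ± 3.46% in 35S:HSFA1b HS and 24.4 ± 1.82% in 35S:HSFA1b NS plants, and 19.2 ± 5.07% in WT HS and 14.4 ± 3.59% in WT NS plants (SD, n = 3 each). The shares did not overlap between the groups compared, which gives the smallest exact permutation p of 0.1, except for HSFA1d between 35S:HSFA1b NS and WT NS (exact p = 0.4) and HSFA1e between WT HS and WT NS (exact p = 0.3). A share falls when the other genes rise, so the shares restate the changes in level given above. The level of HSFA1a itself had no called change.

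**Figure D4:**
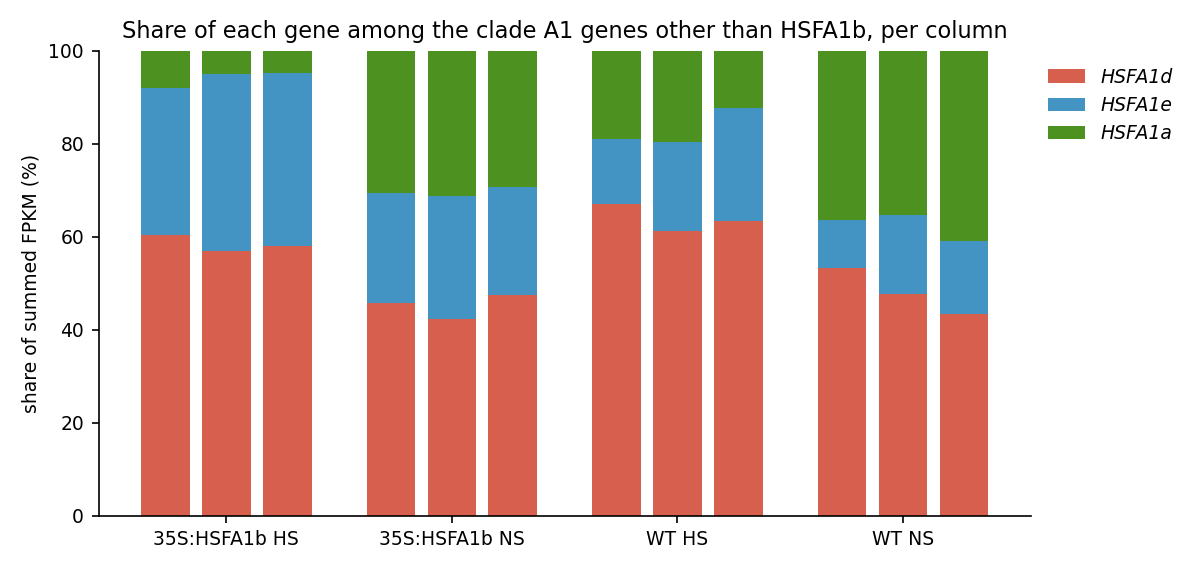
Share of HSFA1d, HSFA1e and HSFA1a in the summed FPKM of these genes (y axis, percent), 1 bar per column. The HSFA1a part is smallest in 35S:HSFA1b HS plants (4.84 to 8.11%) and largest in WT NS plants (35.3 to 40.9%).

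Of the sequences up to 300 bases before the annotated starts, those of HSFA1d and HSFA1e are shown because both genes rose under HS in both kinds of plant. They were searched on both strands for the HSE of 2 units (GAANNTTC or TTCNNGAA), the HSE of 3 units (GAANNTTCNNGAA or TTCNNGAANNTTC, each of which holds the shorter one) and the G-box (CACGTG). In the TAIR10.1 sequence of RefSeq, capitals mark matches.
HSFA1e, chr3:673128-673427 (plus strand): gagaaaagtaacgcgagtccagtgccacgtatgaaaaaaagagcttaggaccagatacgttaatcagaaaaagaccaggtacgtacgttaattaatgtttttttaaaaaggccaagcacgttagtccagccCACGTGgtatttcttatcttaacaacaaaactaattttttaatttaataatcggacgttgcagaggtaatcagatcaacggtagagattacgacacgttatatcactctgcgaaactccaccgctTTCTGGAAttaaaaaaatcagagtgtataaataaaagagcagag
HSFA1d, chr1:11660472-11660771 (minus strand): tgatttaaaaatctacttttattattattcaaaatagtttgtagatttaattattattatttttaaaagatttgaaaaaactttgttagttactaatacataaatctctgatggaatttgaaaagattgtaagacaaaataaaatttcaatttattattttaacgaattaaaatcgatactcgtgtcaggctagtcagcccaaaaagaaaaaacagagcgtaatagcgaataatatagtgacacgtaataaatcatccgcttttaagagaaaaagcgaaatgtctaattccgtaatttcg
The HSFA1e window held 1 G-box (169 to 164 bases before the start) and 1 HSE of 2 units (44 to 37 bases before it). The HSFA1d window held none of the 3 motifs, and neither did those of HSFA1a and HSFA1b, which reach into neighbouring genes. Of 27443 windows of the same length before protein-coding genes, 19.3% held an HSE of 2 units, 0.485% one of 3 units and 7.09% a G-box. A match is a description of letters, not of binding.

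Known targets of clade A1 HSFs set the members' changes beside those of the genes they regulate. This list has HSFA2, HSFA3, HSFA7a, HSFA7b, HSFB1, HSFB2a, HSFB2b, DREB2A and MBF1C, all of which code for transcription regulators. Under HS, 8 of 9 rose in the line, where 22.6% of all tested genes did, and 9 of 9 in WT, where 23.7% did, and the median log2 difference of the list was 2.10 in the line and 6.95 in WT. Between the kinds of plant under HS, 6 of 9 were lower in the line and 1 was higher, where 16.8% and 12.1% of all tested genes were. HSFA2, which sustains the heat response, was at 480, 568 and 490 FPKM in 35S:HSFA1b HS plants, against 2405, 2329 and 3234 FPKM in WT HS plants (log2 difference -2.36, adjusted p = 0.000709). HSFA7a averaged 164 ± 8.24 FPKM in 35S:HSFA1b HS plants and 883 ± 132 FPKM in WT HS plants (SD, n = 3 each, log2 difference -2.42, adjusted p = 3.35e-06). HSFA3 (-2.49), DREB2A (-1.75), MBF1C (-1.76) and HSFB2b (-0.55) were lower as well, on the log2 scale. The call of HSFA3 was lost with 1 of 12 columns left out in turn, and its WT HS columns were at 5.37, 7.79 and 24.2 FPKM. With quantile normalization 5 of 9 targets were lower and 1 was higher. The median log2 difference of the list was then -1.41, against -1.76 as deposited. HSFB2a, a class B repressor, was the one gene of the list that was higher in the line under HS (log2 difference 0.72, adjusted p = 0.00475), as HSFA1d and HSFA1e were. HSFA7b (log2 difference -1.91, adjusted p = 0.0637) and HSFB1 (-0.36, adjusted p = 0.354) were not called.

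Under NS, 7 of the 9 targets were higher in the line than in WT, where 6.12% of all tested genes were, with a median log2 difference of 2.73. Without 35S_NS_2, 6 of 9 were called. The response to HS was smaller in the line than in WT for 8 of 9 targets, with a median difference of -4.09 on the log2 scale, beside 7.97% of all tested genes called lower and 11.9% called in either direction. HSFA1b was the only clade A1 gene called in that direction, and HSFA1d was the only gene among the clade, the other HSFs, the targets and the listed regulators that was called in the other direction, as 3.94% of all tested genes were. Sharing of samples between these comparisons means that they are not independent, and the leaf markers split the same columns.

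Over the 17 other HSF genes, 13 were tested, and HSFA6a, HSFA6b, HSFA9 and HSFB3 were below the minimum level. In the line 8 of 13 rose and 1 fell under HS, where 22.6% and 19.7% of all tested genes did, and in WT 11 of 13 rose, where 23.7% did. HSFC1 was the gene that fell in the line (log2 difference -0.60, adjusted p = 0.0198), and this call was lost with 4 of 12 columns left out in turn, 35S_NS_2 among them. In WT the largest log2 differences were those of HSFA7b (12.61), HSFA7a (9.53) and HSFA2 (8.79). That of HSFA7b is set by the pseudocount, since it was at 93.8, 112 and 190 FPKM under HS and at 0, 0.0724 and 0 FPKM under NS. The most abundant in WT NS plants were HSFB1, HSFC1 and HSFA4a. HSFB1 rose under HS in both kinds of plant (log2 difference 2.10, adjusted p = 0.000167 in the line and 5.64, adjusted p = 2.67e-06 in WT). HSFA4a did so as well (1.91, adjusted p = 0.00372 in the line and 1.61, adjusted p = 0.0191 in WT), although its WT columns overlapped and the WT call was lost with 3 of 9 columns left out in turn. The mean WT NS level of HSFB1 was 12.9 ± 4.78 FPKM (SD, n = 3), above that of each clade A1 gene. The HS rises of HSFA1d and HSFA1e in WT, 1.48 and 1.47 on the log2 scale, were below the median of 3.803 of the 13 genes.

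**Figure D5:**
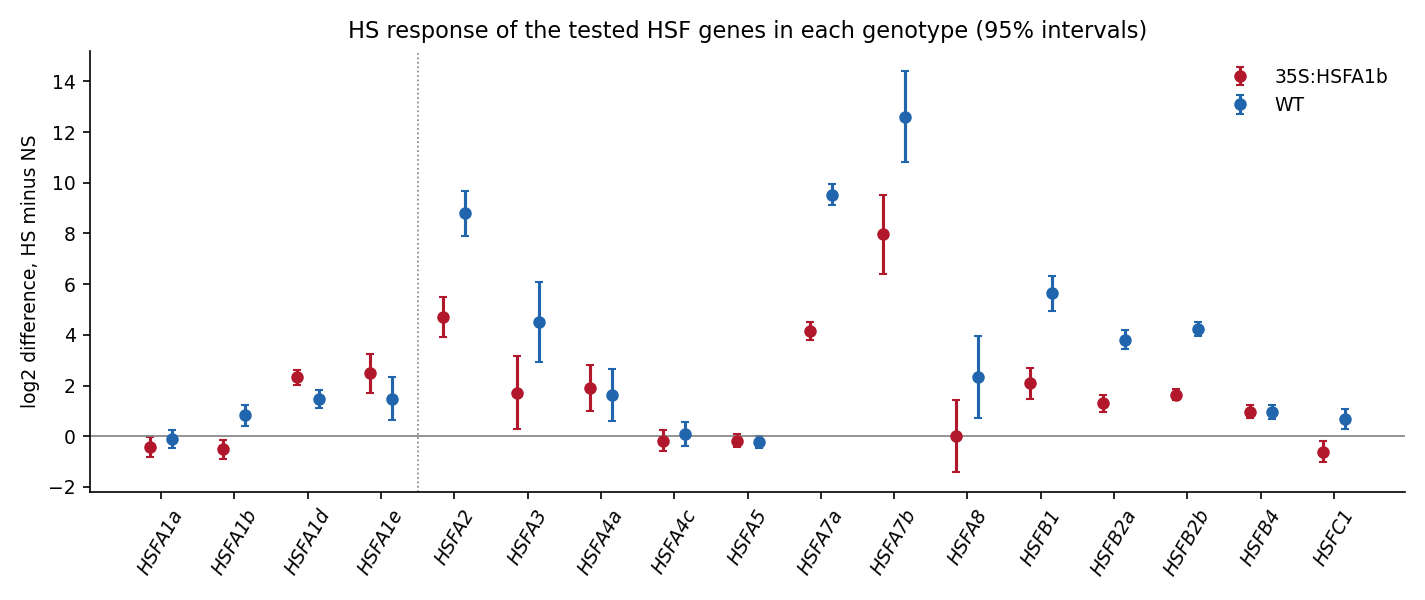
Log2 difference of HS from NS (y axis) with 95% intervals for the 17 tested HSF genes in the 35S:HSFA1b line (red) and WT (blue), with the clade A1 genes left of the dotted line. HSFA1d (2.32 and 1.48) and HSFA1e (2.48 and 1.47) are among the genes with the higher point in the line, as is HSFA4a. The difference between the kinds of plant was called for HSFA1d but not for HSFA1e or HSFA4a. HSFA2, HSFA7a, HSFB1, HSFB2a and HSFB2b have the higher point in WT.

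Regulators known to act on clade A1 HSFs were also described, namely the chaperone genes HSP90.1 to HSP90.4, HSC70-1 and HSP70-2 to HSP70-4, the binding protein HSBP, the kinases CBK3 and BIN2, the phosphatase PP7 and the calmodulin CAM3. The HSP90 and HSP70 genes have near-identical copies that can share reads, so their single values are uncertain. In HS plants, 10 of 13 were lower in the line than in WT and none was higher, where 16.8% and 12.1% of all tested genes were, though with quantile normalization 6 of 13 were lower. HSP90.1 was at 2384, 2391 and 2103 FPKM in 35S:HSFA1b HS plants, against 5531, 5233 and 6812 FPKM in WT HS plants (log2 difference -1.35, adjusted p = 0.0154), and its direction turned with quantile normalization (0.17, adjusted p = 0.756). HSP70-4, CBK3 and CAM3 were not called with that scaling either, where the log2 difference of HSP70-4 was -0.21 and that of HSP70-3 -0.73. HSC70-1 was lower by 2.14 on the log2 scale (adjusted p = 1.17e-05), HSP90.2 by 2.12, HSP90.3 by 2.63, HSP90.4 by 1.13, HSP70-2 by 3.86, HSP70-3 by 1.82 and HSP70-4 by 1.90. CBK3, a kinase known to phosphorylate HSFA1a, had a log2 difference of -0.28 (adjusted p = 0.00915) and CAM3 one of -0.67 (adjusted p = 0.0191). HSBP, PP7 and BIN2, which is known to phosphorylate HSFA1d, were not called.

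In NS plants, HSP90.1 (log2 difference 4.90), HSP70-4 (3.92) and CBK3 (0.57) were higher in the line than in WT, and HSP90.3 was lower (-1.28, adjusted p = 0.000257). With median centring of the columns, 4 of the 13 regulators were lower. Under HS, 6 of 13 rose in the line, where 22.6% of all tested genes did, and 10 of 13 rose in WT, where 23.7% did. In WT, 1 of 13 was lower under HS, where 20.8% of all tested genes were, namely BIN2 (log2 difference -0.23, adjusted p = 0.0441), and this call was lost with 7 of 9 columns left out in turn, 35S_NS_2 among them. The median log2 difference of the list was 0.31 in the line and 1.54 in WT.

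Genes with the profile most like each member were ranked by Pearson's r of log2(FPKM + 0.01) over the 12 columns among 17719 genes, as a description, since the columns share their groups and their scaling. For HSFA1d they were AT1G68140 (r = 0.995), AT2G18630 (0.990) and APC2 (0.990), a mitochondrial carrier gene. AT1G68140 averaged 138 FPKM in 35S:HSFA1b HS, 22.6 in 35S:HSFA1b NS, 46.8 in WT HS and 16.98 in WT NS plants. For HSFA1e they were AT5G41992 (r = 0.987), SDH7 (0.981), which codes for a subunit of mitochondrial complex II, and AT2G34590 (0.980). HSFA1d and HSFA1e had an r of 0.930 with each other, and HSFA1e was at rank 325 in likeness to HSFA1d. For HSFA1a they were RWP1 (r = 0.894), AT5G48020 (0.879) and LDOX (0.866), an enzyme of anthocyanin synthesis. For HSFA1b they were AT1G53690 (r = 0.984), AT1G64195 (0.980) and JAL22 (0.974). The first pair of these was listed at 0 in all 6 WT columns, and was at 1.45 to 4.38 FPKM (AT1G53690) and 1.51 to 16.4 FPKM (AT1G64195) in the line. The r of this pair therefore depends largely on the added 0.01 and on the split between the line and WT. Over the 6 WT columns alone, where HSFA1b is the native gene, the most alike were GSTU4 (r = 0.999), AT1G65020 (0.998) and AT5G05600 (0.997). HSFA1d had an r of 0.925 with HSFA1b over these columns and was only at rank 1695 in likeness to it.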

How the data were processed

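Leaves of 12 samples in 4 groups were sequenced by the authors with 50-base paired-end reads, which were mapped to the transcriptome with GSNAP (5 mismatches allowed) and quantified by Cufflinks and Cuffdiff, with libraries scaled by the geometric method. The submitters' processing notes name the TAIR10 build. The authors deposited FPKM values for each locus in 12 columns, and versions and strand settings are not given in the sources used here. Columns were assigned to groups by name.

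limma 3.58.1 (R 4.3.3; lmFit, eBayes with an intensity trend) was run on log2(FPKM + 0.01) for genes that averaged 1 FPKM or more. The comparisons of WT HS and of 35S:HSFA1b NS with WT NS used 9 columns, and the other 3 used all 12. Benjamini-Hochberg adjustment covered all tested genes. Sequences and coordinates came from RefSeq TAIR10.1, and the code was tested on simulated data. The members and gene lists were chosen with earlier results of these data known. Besides the members, named genes are the other HSF genes with the 3 largest changes or the 3 highest WT NS levels, all listed targets and regulators, the neighbours in the annotation and the 3 most alike profiles. Alternatives covered the pseudocount (0.1 and 1), the filter (none and 5 FPKM), scaling, the trend, the groups in a fit and each column left out.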

Additional observations from a re-analysis of the deposited data

Results flagged for a closer look

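The HS response of 2 clade A1 genes differed between the 35S:HSFA1b line and WT by a test of the difference itself, an interaction term in limma over all 12 columns and 17720 genes. For HSFA1b the response was -0.52 in the line and 0.83 in WT on the log2 scale, and the difference was -1.35 (adjusted p = 0.00486). In the line the HSFA1b level adds native and transgene transcripts, and in WT it is native alone. The response of the native gene in the line cannot be read from this difference. For HSFA1d the response was 2.32 in the line and 1.48 in WT, and the difference was 0.84 (adjusted p = 0.0211). Of all tested genes, 11.9% had a called difference. Under HS the genotypes cannot be told apart from the sample numbers in the library labels.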

How the results depend on the processing

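Of 377 values of the clade A1 genes under the alternatives, 365 kept their side of the threshold, 6 gained a call and 6 lost one, and no called value changed sign. The uncalled difference of HSFA1a between 35S:HSFA1b NS and WT NS plants did, at -0.03 to 0.15 over settings other than left-out columns. With each column left out in turn, the log2 difference of 35S:HSFA1b HS from 35S:HSFA1b NS was -0.58 to -0.28 for HSFA1a and -0.63 to -0.36 for HSFA1b. That of 35S:HSFA1b NS from WT NS was 0.33 to 0.40 for HSFA1d, called only without the WT HS column WT_HS_2 (adjusted p = 0.0386), and 0.98 to 1.38 for HSFA1e, called without WT_HS_0 (adjusted p = 0.0378) or WT_HS_2 (adjusted p = 0.0274). For HSFA1e it was 1.24 and called with all 12 columns in 1 fit or with the 2 groups alone. The difference of the HS response was 0.72 to 1.02 for HSFA1d. The genes called between 35S:HSFA1b NS and WT NS plants numbered 1731, 641 to 2873 with a column left out, 2624 with all 12 columns in 1 fit and 212 with 35S_NS_2 alone, an alternative chosen after seeing the data in which fewer columns were fitted. Those with a different HS response numbered 2112, and 1161 to 3387 with a column left out. For other genes and shares, 4372 of 4611 values kept their side of the threshold and, where called, their sign. Of the rest, 72 gained a call, 165 lost one, and 2 that were called before or after changed sign. Quantile normalization reversed HSC70-1 between 35S:HSFA1b HS and NS (-0.31, adjusted p = 0.0358) and HSP90.1 between the HS groups (0.17). The causes were not tested. No paired analysis was possible because the columns do not carry the replicate numbers of the labels. The median of the tested genes was near 11 FPKM. Group means below it were those of HSFA1a in every group, HSFA1e in all but 35S:HSFA1b HS, HSFA1d under NS and HSFA1b in WT. Without counts the counting error of these values is unknown.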
